A study of Homo sapiens with 65 samples.

Results

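Apical polarity genes were followed in cardioids, heart-like aggregates grown from WTC-11, a human line of induced pluripotent stem cells, in which the supply of hyaluronan was changed by gene knockout or by enzyme. The set holds 9 of the 58735 genes in the count table: CRB2, CRB3, PALS1, PATJ, PARD3, PARD6B, PRKCI, EZR and PODXL. The genes were picked by name, and the choice rested on measured values of CRB2: its steep rise from day 1.5 to day 2.5 in wild type, and its lower level at day 2.5 in the knockout and in the enzyme-treated cardioids. Those 3 contrasts are therefore given as descriptions with no test, for every one of the 9 genes. The tests below concern the other days and steps.

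The 65 libraries form 16 groups in 2 arms. In the genotype arm (41 libraries), cardioids of 4 wild-type line names (WT) were compared with 4 clones labelled HAS2-KO (KO), HAS2 being a hyaluronan synthase. WT libraries numbered 5, 6, 6 and 3 at days 1.5, 2.5, 4.5 and 7.5, and KO libraries 6, 6, 6 and 3. In KO at days 1.5, 2.5 and 4.5, clone cl4 was repeated (R1, R2 and R3), beside cl14, cl46 and cl51 (R1 each). KO at day 7.5 holds only clones cl4 (R2 and R3) and cl14, and WT at day 7.5 only lines WT (R1 and R2) and WT_TU. By library number the genotype libraries fall in 3 blocks. WT and KO share all 3 at the earlier days but only 1 at day 7.5, where genotype and block can hardly be told apart. Lines WT and WT_TU were also repeated in WT at days 2.5 and 4.5. In the enzyme arm (24 libraries, genotype labelled WT, 3 per group), untreated cardioids at days 2.5, 4.5 and 7.5 were compared with cardioids given hyaluronidase, which degrades hyaluronan, from day 1.5 (HAse1.5, days 2.5, 4.5 and 7.5) or from day 2.5 (HAse2.5, days 4.5 and 7.5) up to the day of sampling. Replicates 1, 2 and 3 of the enzyme arm are the lines named TNNI1, WT and TNNT2. All cardioids were left-ventricular cardioids made from mesoderm that was dissociated and reseeded at day 1.5, and each library pooled 8 of them. The labels call the cells cardiac progenitors up to day 4.5 and cardiomyocytes at day 7.5. Values are in counts-per-million of a library's total (CPM), with SD over libraries. A log2 fold change (± SE) comes from edgeR's quasi-likelihood test, with p adjusted over all genes tested (Benjamini-Hochberg), and "called" means an adjusted p under 0.05.

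As background, epithelial cells keep an apical face, turned to a lumen or a free surface, apart from a basolateral face. The Crumbs complex helps to set the apical domain: the transmembrane proteins CRB2 and CRB3 bind the scaffold PALS1, which binds the scaffold PATJ. The PAR complex acts beside it, with the scaffold PARD3, the adaptor PARD6B and the atypical protein kinase C PRKCI, which phosphorylates basolateral proteins and keeps them out of the apical domain. EZR (ezrin) links apical membrane proteins to cortical actin, and PODXL (podocalyxin) is a sialomucin of the apical surface that is tied to ezrin through NHERF scaffolds. Early heart mesoderm is itself an epithelium while the first cardiomyocytes form.

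CRB2 had no read at day 1.5 and was at its highest mean in WT at day 2.5. At day 2.5, in the contrasts that chose the genes, CRB2 and PODXL lay below every control library in the KO and in the HAse1.5 cardioids. PATJ and PARD6B did so in the HAse1.5 cardioids. PODXL in KO (highest 67.4, lowest WT 67.7 CPM) and PATJ in HAse1.5 (highest 28.0, lowest untreated 28.1 CPM) were barely apart. The share of all genes that lay apart in this way was not counted, so nothing is read from the number. At day 4.5 the CRB2 values of all conditions overlapped. EZR was the only member called by edgeR between conditions in the tests made, which concern days 1.5, 4.5 and 7.5. EZR had its highest means at day 7.5. EZR fell in the HAse1.5 cardioids at day 4.5 and day 7.5, to 0.389 and 0.481 of the untreated mean. No member was called between KO and WT at days 1.5, 4.5 or 7.5.

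Promoters are shown for CRB2, whose values chose the genes, and for EZR, the member called between conditions. RefSeq promoter windows (GRCh38.p14) were found for 6 of the 9 members, in 7 entries. Each sequence below is the 250 bases before a transcription start, read 5′ to 3′ on the gene's strand. CRB2 has 2 annotated starts, with windows at chr9:123368529-123368778 and chr9:123355947-123356196 (both on the plus strand), and the EZR window is chr6:158818236-158818485 (minus strand). Capitals mark the E-box, CANNTG, a pattern bound by basic helix-loop-helix factors.
CRB2, downstream start: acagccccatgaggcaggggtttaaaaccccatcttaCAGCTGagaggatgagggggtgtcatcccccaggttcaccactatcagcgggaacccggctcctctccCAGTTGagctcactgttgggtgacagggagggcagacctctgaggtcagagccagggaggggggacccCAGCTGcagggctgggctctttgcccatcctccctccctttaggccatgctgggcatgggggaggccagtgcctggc
CRB2, upstream start: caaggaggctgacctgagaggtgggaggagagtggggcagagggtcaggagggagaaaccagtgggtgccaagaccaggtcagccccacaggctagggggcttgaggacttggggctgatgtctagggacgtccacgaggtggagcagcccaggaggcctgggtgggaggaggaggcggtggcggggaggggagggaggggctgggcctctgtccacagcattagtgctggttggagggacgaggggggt
EZR: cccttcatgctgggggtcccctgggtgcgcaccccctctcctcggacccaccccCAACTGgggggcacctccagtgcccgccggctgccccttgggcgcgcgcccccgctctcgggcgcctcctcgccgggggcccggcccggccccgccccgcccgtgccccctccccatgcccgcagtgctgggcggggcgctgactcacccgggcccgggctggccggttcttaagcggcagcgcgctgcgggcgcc
The downstream CRB2 window holds 3 E-boxes, the upstream window none, and the EZR window 1. Of the other members found, CRB3 holds 6, PATJ 2, and PALS1 and PRKCI none. The E-box was present in 61.8% of the 35116 promoters of the same table, so a match is common. GATAA (20.4% of all promoters) and CTTTGA (11.2%), searched on both strands, had no match in the 7 entries, and AGGTGT (9.57%) matched only in CRB3. The counts come from the 3′ end of transcripts and do not show which CRB2 start was used.

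On GRCh38 with GENCODE 29, CRB2 (ENSG00000148204) lies on chromosome 9 at 123356170-123380324, plus strand, and EZR (ENSG00000092820) on chromosome 6 at 158765741-158819412, minus strand. PODXL (ENSG00000128567) lies on chromosome 7 at 131500262-131558217, minus strand, and PRKCI (ENSG00000163558) on chromosome 3 at 170222365-170305981, plus strand. PARD6B (ENSG00000124171) lies on chromosome 20 at 50731544-50756795, plus strand, and PARD3 (ENSG00000148498) on chromosome 10 at 34109560-34815325, minus strand. PATJ (ENSG00000132849) lies on chromosome 1 at 61742406-62178675, PALS1 (ENSG00000072415, named MPP5 in GENCODE 29) on chromosome 14 at 67241109-67335819, and CRB3 (ENSG00000130545) on chromosome 19 at 6463777-6467221, all on the plus strand. The 3′ end of CRB2 overlaps DENND1A on the other strand by 671 bases. PALS1 overlaps ATP6V1D by 41449 bases and CRB3 overlaps SLC25A23 by 1427 bases, both on the other strand. The strand setting of the counting is not given in the sources used here, so reads in such overlaps cannot be told apart. At day 1.5 DENND1A was read at 14.6 ± 6.22 CPM in WT (n = 5) while CRB2 had 0 reads in the same libraries.

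Total counts ran from 831062 to 3574843 per library (median 1570954). A set of 7 libraries stood apart: those over 2500000 counts, which are line WT R1 and line WT_TU R1 of WT at days 1.5, 2.5 and 4.5, and clone cl4 R1 of KO at day 1.5. The lowest of these 7 totals was 2724349, and the deepest other library had 2142900. In all 4 groups that hold them, their CPM of PALS1, PATJ, PARD3, PARD6B and PRKCI lay below every other library, and their CPM of PODXL lay above every other library. PARD6B at day 2.5 in WT, for example, was 8.33 to 8.81 CPM in the 2 deep libraries and 41.4 to 56.0 CPM in the other 4. EZR lay below every other library in 2 of the 4 groups (both at day 1.5), and CRB2 above every other library in 1 of the 4 (WT at day 2.5). What sets these libraries apart was not tested. Leaving them out changed the call of 6 of 85 results outside the contrasts of the choice and moved 5 others, all of PODXL, by over 1.5-fold, and each is given both ways below. The sign turned in 23 of the 85, none of them called with all libraries. The HAS2 mean was 657 ± 192 CPM in WT and 582 ± 174 CPM in KO at day 2.5 (n = 6 each). At day 4.5 it was 339 ± 133 CPM in WT and 351 ± 74.5 CPM in KO. Such counts do not check the KO label, as reads at the 3′ end need not fall in the part that was changed. Where that part lies was not tested. All 6 cardiomyocyte markers of the list used (TNNT2, MYH6, MYL7, ACTN2, TNNI1 and NKX2-5) were above 3 counts in some library of every group at days 4.5 and 7.5.

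CRB2 appeared between day 1.5 and day 2.5. All 11 libraries at day 1.5 (5 WT, 6 KO) had 0 CRB2 reads, where a floor of 3 counts corresponds to a mean of 1.28 CPM in WT and 1.57 CPM in KO. In WT at day 2.5 the 6 libraries ranged from 115.2 to 285.9 CPM with a median of 166.7, and in KO from 77.5 to 108.3 CPM with a median of 87.9. The 2 ranges did not overlap. Against the floor, the mean of 177 ± 57.5 CPM in WT was at least 139-fold higher than at day 1.5, and the KO mean of 90.8 ± 11.6 CPM was at least 57.7-fold higher. CRB2 thus went from no reads to these levels in both genotypes.

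The day 2.5 difference that chose the genes had a KO to WT ratio of 0.512, or −1.02 ± 0.20 on the log2 scale. KO was lower within each of the 3 blocks of library numbers. Without the 7 deep libraries the log2 difference of CRB2 was −0.78. In the enzyme arm, untreated cardioids at day 2.5 gave 144.5, 118.9 and 147.5 CPM in lines TNNI1, WT and TNNT2, and HAse1.5 cardioids gave 30.9, 60.7 and 39.3 CPM. Every treated library was below every untreated one. The ratio was 0.319, or −1.69 ± 0.29 on the log2 scale. Both differences were used in the choice and are descriptions only. The same libraries differed in markers of other cell states. Of 9 marker lists, 2 had sums that did not overlap between KO and WT at day 2.5 and 5 between HAse1.5 and untreated cardioids. The summed CPM of 6 surface epithelium markers (EPCAM, CDH1, KRT8, KRT18, KRT19 and GRHL2) was 3242 to 4116 in untreated and 1603 to 2663 in HAse1.5 cardioids. GRHL2 was at the floor in both groups. CDH1 was at the floor in untreated cardioids but not in HAse1.5, so it did not share in the lower sum. The sum was 2322 to 4744 in WT and 1446 to 2057 in KO, with all 6 above the floor. The sum of the 6 cardiomyocyte markers at day 2.5 was 92.1 to 359 CPM in WT and 28.7 to 67.4 CPM in KO, 200.2 to 428 CPM in untreated cardioids, against 52.2 to 102.3 CPM in HAse1.5. TNNT2 and MYH6 were at the floor in KO, and TNNT2, MYH6 and ACTN2 in HAse1.5. ACTN2 was at the floor in WT but not in KO, so it did not share in the lower KO sum. With HAse1.5 the sum of 5 pluripotency markers was also lower (484 to 592 against 662 to 816 CPM, NANOG at the floor), as was that of 5 endothelial markers (112.6 to 161 against 167.5 to 278 CPM, with PECAM1, CDH5 and EMCN at the floor in both groups). PAX2, a kidney and intermediate mesoderm factor, was higher, at 10.98 to 25.6 CPM against 1.02 to 7.15 CPM. Their part in the CRB2 difference was not tested. In pooled cardioids fewer cells that express a gene and less of its RNA per cell cannot be told apart.

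**Figure D1:**
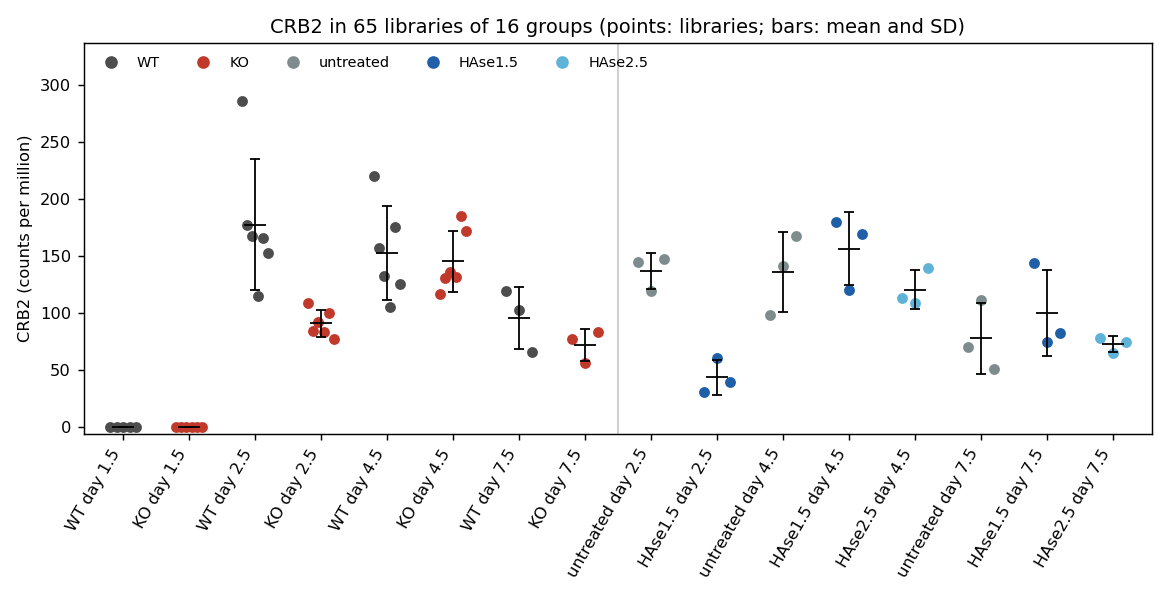
CRB2 in CPM (y axis) for each of the 65 libraries (points) in 16 groups (x axis), with the mean and SD of each group as bars. Every library at day 1.5 is at 0, the WT points at day 2.5 (115.2 to 285.9 CPM) lie above the KO points (77.5 to 108.3 CPM), and the groups at day 4.5 overlap.

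At day 4.5 the CRB2 ranges of WT and KO overlapped. WT ranged from 105.2 to 220.2 CPM (median 144.5) and KO from 116.8 to 184.7 CPM (median 133.7), so the KO range lay inside the WT range. The KO to WT difference of CRB2 at day 4.5 was −0.16 ± 0.20 on the log2 scale (95% interval −0.56 to 0.24, adjusted p = 0.686), and +0.07 without the deep libraries. KO alone went from 77.5 to 108.3 CPM at day 2.5 to 116.8 to 184.7 CPM at day 4.5, a log2 change of 0.69 ± 0.20 (ratio of means 1.599) with no overlap between the days. The change in WT over the same days was −0.17. These steps start from the day 2.5 libraries that the choice of CRB2 used and are given without a test, and a change of the KO effect from day 2.5 to day 4.5 was not tested.

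In the enzyme arm CRB2 at day 4.5 was 98.3, 141.2 and 167.6 CPM in untreated cardioids, 179.4, 120.1 and 169.4 CPM in HAse1.5, and 112.9, 108.5 and 139.8 CPM in HAse2.5. The 3 groups overlapped, and HAse1.5 was above untreated in 2 of the 3 lines. The log2 difference from untreated was 0.13 ± 0.27 for HAse1.5 (95% interval −0.43 to 0.69, adjusted p = 0.928) and −0.20 ± 0.28 for HAse2.5 (−0.77 to 0.37, adjusted p = 1). Both treatments share the untreated libraries.

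At day 7.5 the CRB2 mean of each condition was below its day 4.5 mean. CRB2 was 119.1, 102.6 and 66.0 CPM in WT and 76.8, 56.4 and 83.0 CPM in KO, which overlap (log2 −0.46 ± 0.29, 95% interval −1.04 to 0.13, adjusted p = 1). It was 70.5, 111.7 and 50.4 CPM in untreated cardioids, 143.4, 74.1 and 82.3 CPM in HAse1.5, and 78.2, 65.1 and 74.7 CPM in HAse2.5. None of these groups stood apart: HAse1.5 differed from untreated by 0.25 ± 0.28 (adjusted p = 0.722) and HAse2.5 by −0.15 ± 0.28 (adjusted p = 0.857). Within KO, CRB2 fell from day 4.5 to day 7.5 by 0.94 ± 0.26 on the log2 scale (ratio 0.496, adjusted p = 0.0211), with the 2 days apart. That call was lost without KO clone cl4 R2 at day 7.5 (adjusted p = 0.0757) or cl4 R3 (0.161). The KO group at day 7.5 holds only clones cl4 and cl14. The changes over the same days were −0.65 ± 0.25 in WT (adjusted p = 0.2) and −0.68 ± 0.28 in untreated cardioids (adjusted p = 0.131), neither called. Whether the KO effect on CRB2 changed from day 4.5 to day 7.5 was tested as a difference of effects and was not called (−0.30, adjusted p = 1).

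Ordered by mean, CRB2 ran from WT at day 2.5 (177 CPM) through HAse1.5 (156 ± 31.7), WT (152.5 ± 41.3) and KO (145.2 ± 26.6) at day 4.5, untreated at day 2.5 (137 ± 15.7) and at day 4.5 (135.7 ± 35.0), and HAse2.5 at day 4.5 (120.4 ± 16.9). Then came HAse1.5 (99.9 ± 37.9) and WT (95.9 ± 27.2) at day 7.5, KO at day 2.5 (90.8), untreated (77.5 ± 31.2), HAse2.5 (72.6 ± 6.78) and KO (72.1 ± 13.9) at day 7.5, HAse1.5 at day 2.5 (43.6 ± 15.4) and both day 1.5 groups. Of the 15 pairs of neighbours in this order, 2 differed by more than their spread: KO at day 7.5 against HAse1.5 at day 2.5, and HAse1.5 at day 2.5 against day 1.5. Both gaps border the HAse1.5 group at day 2.5, whose level was used in the choice, so nothing is read from them. For EZR 2 of the 15 pairs of neighbours also differed by more than their spread, the untreated group at day 7.5 against the next and KO at day 7.5 against the next, and for each of the other members 0 of 15 did.

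CRB3, the other Crumbs protein of the set, was close to absent in these counts. It had 14 reads over all 65 libraries and at most 3 in any library, so it was at the floor in every group, did not pass the filter on low counts and was not tested. SLC25A23, which overlaps it on the other strand, had 8649 counts.

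PALS1, the scaffold that binds the Crumbs tail, kept a narrow range, with group means from 41.4 to 72.8 CPM. In WT at day 4.5 it ranged from 19.4 to 81.1 CPM (median 51.2) and in KO from 38.4 to 66.5 CPM (median 51.9). The WT range contained the KO range, and its low end came from the 2 deep libraries (19.4 and 25.9 CPM). The log2 difference between KO and WT was 0.05 with all libraries and −0.29 without the deep ones (adjusted p = 0.94 and 0.379). In the enzyme arm at day 4.5 PALS1 was 74.4, 57.7 and 85.5 CPM in untreated cardioids, against 49.6, 48.4 and 60.9 CPM in HAse2.5. HAse2.5 was lower in all 3 lines, but the groups overlapped and the difference was not called (log2 −0.49 ± 0.21, adjusted p = 0.565). No step or condition was called for PALS1 in the tests made.

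PATJ, the scaffold that PALS1 recruits, had group means from 16.7 CPM (WT at day 1.5) to 50.9 CPM (untreated at day 7.5). At day 2.5 it was 28.1, 53.7 and 45.4 CPM in untreated cardioids, against 16.5, 28.0 and 17.5 CPM in HAse1.5. The groups were just apart (lowest untreated 28.1, highest treated 28.0), a log2 difference of −1.07 ± 0.30 that belongs to a contrast used in the choice. At day 4.5 it was 32.1, 36.4 and 28.5 CPM in untreated cardioids, 41.0, 33.7 and 37.8 CPM in HAse1.5, and 48.9, 41.4 and 38.5 CPM in HAse2.5. HAse2.5 lay above untreated in every line without being called (log2 0.38 ± 0.29, adjusted p = 0.941). In KO, PATJ went from 14.04 to 33.7 CPM at day 2.5 to 38.6 to 49.2 CPM at day 4.5, with no overlap. The log2 change was 0.61 ± 0.45 (adjusted p = 0.335), and 0.60 ± 0.21 without the deep libraries (adjusted p = 0.0172), none of which is in those 2 groups: they enter through the shared estimate of the spread.

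Of the PAR complex, PARD3 was called in no comparison between conditions. At day 7.5 it was 170.4, 152.5 and 123.1 CPM in untreated cardioids, against 189.1, 204.2 and 161.0 CPM in HAse1.5, which overlap (log2 0.20 ± 0.17, adjusted p = 0.608). At day 4.5 it ranged from 55.8 to 178.6 CPM (median 131.9) in WT and from 121.6 to 188.2 CPM (median 169.4) in KO (log2 0.43 ± 0.25, adjusted p = 0.354). Without the deep libraries that difference was 0.14. In KO the step from day 2.5 (66.2 to 137.3 CPM, median 124.8) to day 4.5 was 0.51 ± 0.25 (adjusted p = 0.128), and 0.50 ± 0.13 without the deep libraries (adjusted p = 0.00162). A pseudogene, RPS12P16, lies within PARD3 on the same strand and had 4646 counts of its own.

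PARD6B, the adaptor that binds PRKCI, was lower in HAse1.5 than in untreated cardioids at day 2.5. It was 41.9, 44.7 and 44.9 CPM in untreated cardioids, against 20.6, 12.8 and 23.7 CPM in HAse1.5, a log2 difference of −1.23 ± 0.31 with the groups apart, in a contrast used in the choice. At day 4.5 it was 62.8, 51.5 and 81.4 CPM in untreated cardioids, 35.4, 43.2 and 30.3 CPM in HAse1.5, and 56.1, 25.0 and 51.9 CPM in HAse2.5. HAse1.5 was below untreated in all 3 lines with no overlap, but the difference of −0.93 ± 0.29 (95% interval −1.53 to −0.34) missed the threshold (adjusted p = 0.0767, and 0.0394 with DESeq2). At day 7.5 untreated gave 47.3, 65.1 and 45.3 CPM and HAse1.5 46.5, 46.0 and 27.9 CPM, lower in all 3 lines but overlapping (−0.51 ± 0.29, adjusted p = 0.393). Between KO and WT at day 4.5 the log2 difference of PARD6B was 0.02 ± 0.47 (adjusted p = 0.99) with the deep libraries and −0.45 ± 0.20 (adjusted p = 0.236) without them. It was not called either way. In KO the step of PARD6B from day 2.5 to day 4.5 was 0.52 with all libraries (adjusted p = 0.455) and 0.52 ± 0.18 without the deep ones (adjusted p = 0.0205).

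PRKCI, the kinase of the complex, fell from day 2.5 to day 4.5 in KO, and in WT it did so in a call that many alternatives lost. It ranged from 32.7 to 88.6 CPM in WT at day 2.5 (median 51.2) and from 16.9 to 52.0 CPM at day 4.5 (median 33.0), which overlap. In KO it ranged from 48.8 to 95.1 CPM at day 2.5 (median 65.1) and from 32.7 to 48.1 CPM at day 4.5 (median 35.7), with no overlap. The step was −0.77 ± 0.25 in KO (adjusted p = 0.0144) and −0.63 ± 0.25 in WT (adjusted p = 0.0448). The KO call held in all 18 alternatives. The WT call held in 7 of 18 and was lost, among others, without any 1 of 9 libraries: lines WT R2, WT_TU R2, cl43_WT_UT and TNT2 at day 2.5, and lines WT R1, WT_TU R1, WT R2, cl43_WT_UT and TNT2 at day 4.5 (adjusted p from 0.055 to 0.19). Without all 7 deep libraries together it held (−0.66, adjusted p = 0.0114). In untreated cardioids PRKCI was 42.9, 43.8 and 38.7 CPM at day 2.5 and 28.7, 37.3 and 40.3 CPM at day 4.5 (−0.37 ± 0.28, adjusted p = 0.36). At day 1.5, PRKCI was 16.5, 24.1, 57.4, 54.3 and 62.5 CPM in the WT libraries, the first 2 of them deep, and 53.3 to 84.7 CPM in KO (0.68 ± 0.26, adjusted p = 0.937).

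**Figure D2:**
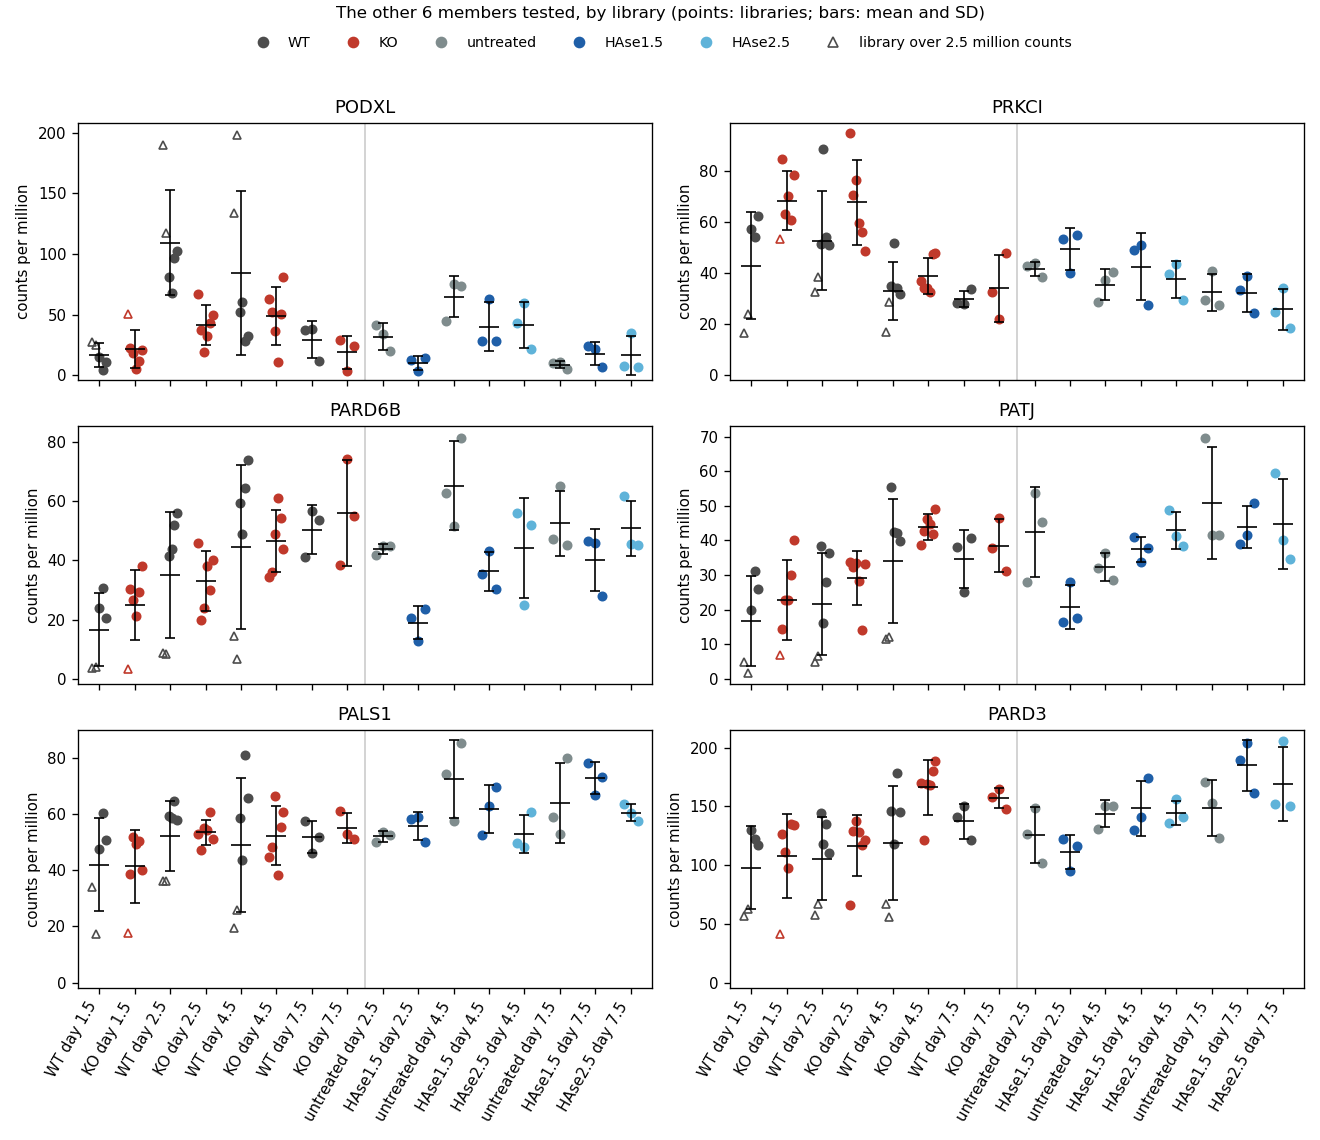
PODXL, PRKCI, PARD6B, PATJ, PALS1 and PARD3 in CPM (y axis, 1 panel per gene) for each library in the 16 groups (x axis), with open triangles for the 7 libraries over 2500000 counts. The triangles are the lowest points of their groups for PRKCI, PARD6B, PATJ, PALS1 and PARD3 and the highest for PODXL.

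EZR, the actin linker, was the member called between conditions at days 4.5 and 7.5. At day 4.5 it was 259.3, 259.3 and 258.0 CPM in untreated cardioids, 68.3, 146.1 and 87.9 CPM in HAse1.5, and 144.5, 149.9 and 125.7 CPM in HAse2.5. All 6 treated libraries were below all 3 untreated ones, which lay within 2 CPM of each other. With HAse1.5 EZR fell to 0.389 of untreated (log2 −1.45 ± 0.23, 95% interval −1.91 to −0.98, adjusted p = 0.0004, called in all 11 alternatives). HAse2.5 gave a ratio of 0.541 (−0.92 ± 0.22, 95% interval −1.38 to −0.46) that missed the threshold (adjusted p = 0.0824) and was called in 3 of 11 alternatives (0.00233 to 0.392).

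At day 7.5 EZR was 571, 490.1 and 438 CPM in untreated cardioids, 176, 272 and 273 CPM in HAse1.5, and 335, 287 and 264 CPM in HAse2.5. Again every treated library lay below every untreated one. With HAse1.5 EZR fell to 0.481 of untreated (−1.17 ± 0.22, 95% interval −1.62 to −0.72, adjusted p = 0.00285, called in all 11 alternatives). HAse2.5 gave 0.591 (−0.81 ± 0.22, 95% interval −1.26 to −0.36, adjusted p = 0.0901, called in 2 of 11). The 2 treatments share the untreated libraries. Compared directly, HAse1.5 and HAse2.5 differed by −0.53 ± 0.23 at day 4.5 (adjusted p = 0.399) and by −0.36 at day 7.5 (adjusted p = 0.944), so the 2 start days were not told apart. The HAse1.5 effect at day 7.5 minus that at day 4.5 was 0.28 ± 0.31 (adjusted p = 0.866).

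At day 2.5, 1 day into treatment, EZR was 121, 149.3 and 155.9 CPM in untreated cardioids, against 134.5, 152.6 and 126.2 CPM in HAse1.5, which overlap (log2 −0.08, a contrast of the choice). The libraries in which EZR was low also differed in markers of other cell states. At day 4.5 the summed cardiomyocyte markers were 8486 to 17951 CPM in untreated, 748 to 4269 CPM in HAse1.5 and 5649 to 9768 CPM in HAse2.5 cardioids. The HAse2.5 sums overlapped the untreated ones. The 6 surface epithelium markers summed to 1204 to 1237 CPM in untreated, 482 to 1055 CPM in HAse1.5 and 362 to 461 CPM in HAse2.5 cardioids. GRHL2 was at the floor in all 3 groups, and CDH1 in untreated and HAse2.5 cardioids. The 5 endothelial markers went the other way, with sums of 119.4 to 150.1 CPM in untreated, 168 to 186 CPM in HAse1.5 and 190.5 to 203 CPM in HAse2.5 cardioids. PAX2 was at 0 in untreated and 1.73 to 4.96 CPM in HAse1.5 cardioids, and the sum of 6 cardiac and early mesoderm markers was lower in HAse2.5 (465 to 533 CPM) than in untreated cardioids (543 to 579 CPM). At day 7.5 the cardiomyocyte sums were 25397 to 32043, 7880 to 12919 and 14034 to 24050 CPM, and the epithelial sums 466 to 685, 290 to 351 and 365 to 494 CPM. The epithelial sums of HAse2.5 and untreated cardioids overlapped. CDH1 and GRHL2 were at the floor in all 3 groups at day 7.5. The mesoderm sums were 489 to 659, 208 to 481 and 323 to 380 CPM. Those of 5 epicardial and mesothelial markers (WT1, TBX18, TCF21, MSLN and UPK3B) were 5.35 to 28.9, 0.719 to 4.18 and 0 to 5.24 CPM. These 5 rest on few reads: all were at the floor in HAse1.5, all but TCF21 in HAse2.5, and MSLN and UPK3B in untreated cardioids. The part of these markers in the EZR result was not tested.

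In the genotype arm EZR was not called between KO and WT. At day 4.5 WT ranged from 254 to 309 CPM (median 277) and KO from 185 to 251 CPM (median 219.6), with no overlap and KO lower in each of the 3 blocks. The log2 difference was −0.42 ± 0.16 (95% interval −0.73 to −0.11, adjusted p = 0.122). The cardiomyocyte markers summed to 11656 to 25772 CPM in WT and 4314 to 13727 CPM in KO, which overlap, and the surface epithelium markers to 1211 to 1551 CPM in WT and 469 to 1123 CPM in KO, which do not. GRHL2 was at the floor in WT but not in KO, so it did not share in the lower KO sum. The part of these markers in the EZR difference was not tested. At day 7.5 EZR was 436, 453 and 306 CPM in WT and 357, 359 and 301 CPM in KO, which overlap (−0.27, adjusted p = 1). At day 1.5 it was 135.1, 130.3, 195.3, 232 and 222.7 CPM in WT and 131.2 to 255 CPM in KO (0.09, adjusted p = 0.946). A joint fit of the day 4.5 and 7.5 libraries of both arms, added after the data were seen, tested the HAse1.5 effect on EZR minus the KO effect. That difference was −1.05 ± 0.27 at day 4.5 (95% interval −1.60 to −0.50, adjusted p = 0.0773). It was called with the block and line in the fit (−1.14, adjusted p = 0.0131) and without the 2 deep libraries at day 4.5 (−1.09 ± 0.26, adjusted p = 0.0417). At day 7.5 it was −0.92 ± 0.31 (adjusted p = 0.344).

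**Figure D3:**
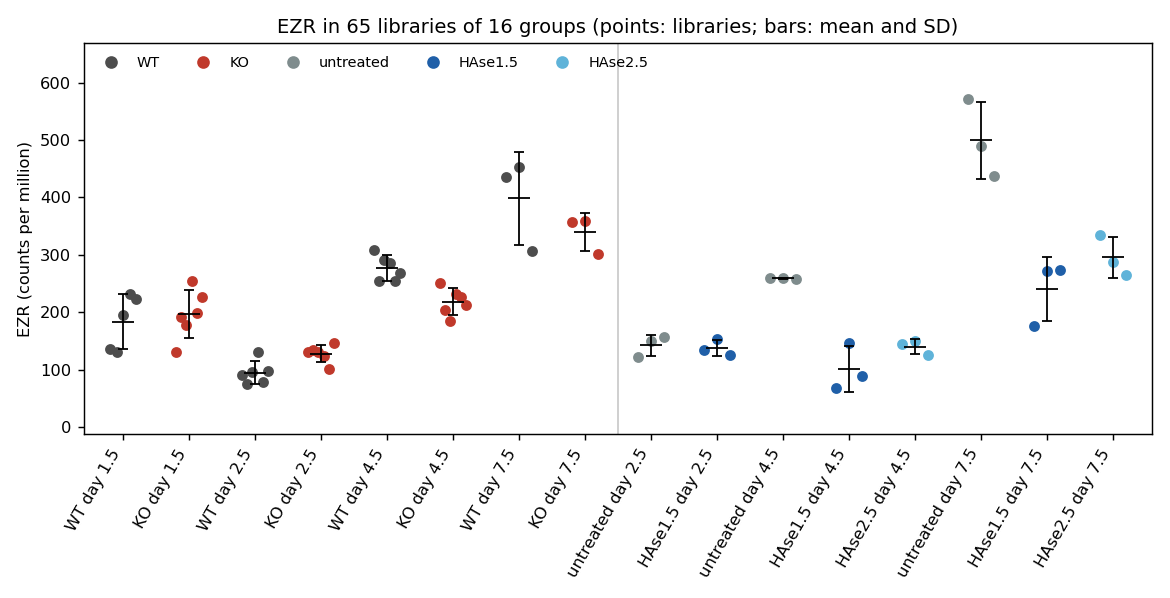
EZR in CPM (y axis) for each of the 65 libraries (points) in 16 groups (x axis), with group mean and SD as bars. At days 4.5 and 7.5 the HAse1.5 and HAse2.5 points lie below the untreated points, and the untreated points at day 4.5 (258.0 to 259.3 CPM) almost coincide.

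Over time EZR was lowest at day 2.5 in WT and KO, and highest at day 7.5 in WT, KO and untreated cardioids. The untreated cardioids were also lowest at day 2.5, but they have no library at day 1.5. From day 1.5 to day 2.5 it went from 183 ± 48.0 to 94.4 ± 20.3 CPM in WT (log2 −1.15, a contrast of the choice), and in KO it fell from 197 ± 42.3 to 128 ± 15.2 CPM (−0.84 ± 0.16, adjusted p = 4.89e-05). From day 2.5 to day 4.5 it rose by 1.604 ± 0.16 in WT (adjusted p = 1.16e-10), by 0.79 ± 0.16 in KO (adjusted p = 0.000106) and by 0.74 ± 0.22 in untreated cardioids (adjusted p = 0.0171, and 0.0808 without line TNNI1 at day 2.5). From day 4.5 to day 7.5 it rose by 1.07 ± 0.22 in untreated cardioids (adjusted p = 0.00498) and by 0.70 ± 0.19 in KO (adjusted p = 0.0152). The KO call was lost without clone cl4 R2 (0.0971) or R3 (0.0931) of day 7.5, a group that holds only clones cl4 and cl14. In WT the last step was 0.55 ± 0.19 (adjusted p = 0.116), and 0.61 ± 0.16 (adjusted p = 0.0118) without the deep libraries.

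PODXL, the apical sialomucin, varied widely between libraries of a group. At day 2.5 it ranged from 67.7 to 190.1 CPM in WT (median 99.6) and from 18.9 to 67.4 CPM in KO (median 39.8), just apart (log2 −1.49 ± 0.49). It was 41.4, 34.0 and 19.6 CPM in untreated cardioids, against 12.4, 3.20 and 14.4 CPM in HAse1.5, again apart (−1.66 ± 0.59). Both are contrasts of the choice. The 2 deep libraries were the highest of the WT group (117.5 and 190.1 CPM), and without the deep libraries the KO to WT difference was −1.17 ± 0.42. PODXL and CRB2 were lower at day 2.5 in the same groups, from which nothing is read.

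At day 4.5 PODXL ranged from 28.3 to 198.3 CPM in WT (median 56.1) and from 10.7 to 81.1 CPM in KO (median 51.3). The log2 difference was −0.89 ± 0.48 (adjusted p = 0.314), and it turned to +0.14 ± 0.43 without the deep libraries, which were the 2 highest of the WT group (133.4 and 198.3 CPM). In the enzyme arm PODXL was 45.0, 75.5 and 73.7 CPM in untreated cardioids, 27.9, 63.1 and 28.5 CPM in HAse1.5, and 43.1, 59.3 and 21.8 CPM in HAse2.5, all overlapping (−0.79 ± 0.52, adjusted p = 0.589, and −0.67 ± 0.52, adjusted p = 0.939). At day 7.5 untreated cardioids gave 9.82, 10.9 and 5.19 CPM. PODXL thus fell from day 4.5 to day 7.5 in untreated cardioids by 2.77 ± 0.60 on the log2 scale (adjusted p = 0.00839), with the days apart, and without line TNNT2 at day 7.5 the adjusted p was 0.0601. The same step was −1.53 ± 0.64 in WT (adjusted p = 0.238) and −1.33 ± 0.65 in KO (adjusted p = 0.292). The WT value was −0.49 ± 0.54 without the deep libraries (adjusted p = 0.652). The WT step from day 2.5 to day 4.5 was −0.31 with all libraries and −1.004 ± 0.46 without the deep ones (adjusted p = 0.664 and 0.0935). The KO effect on PODXL at day 7.5 minus that at day 4.5 was 0.20 and −0.82 in the same order (adjusted p = 1 and 0.827), and the HAse1.5 effect minus the KO effect at day 4.5 was 0.08 and −0.94 (adjusted p = 0.987 and 0.951). At day 7.5, HAse1.5 gave 24.5, 21.6 and 6.97 CPM and HAse2.5 7.61, 34.9 and 6.55 CPM, which overlap untreated (0.90 ± 0.64, adjusted p = 0.514, and 0.85 ± 0.63, adjusted p = 0.574). From day 1.5 to day 2.5 PODXL in KO changed by 0.63 ± 0.50 (adjusted p = 0.36) with all libraries and by 1.13 ± 0.45 (adjusted p = 0.0446) without the deep ones, and in WT by 2.45 ± 0.54 (a contrast of the choice).

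**Figure D4:**
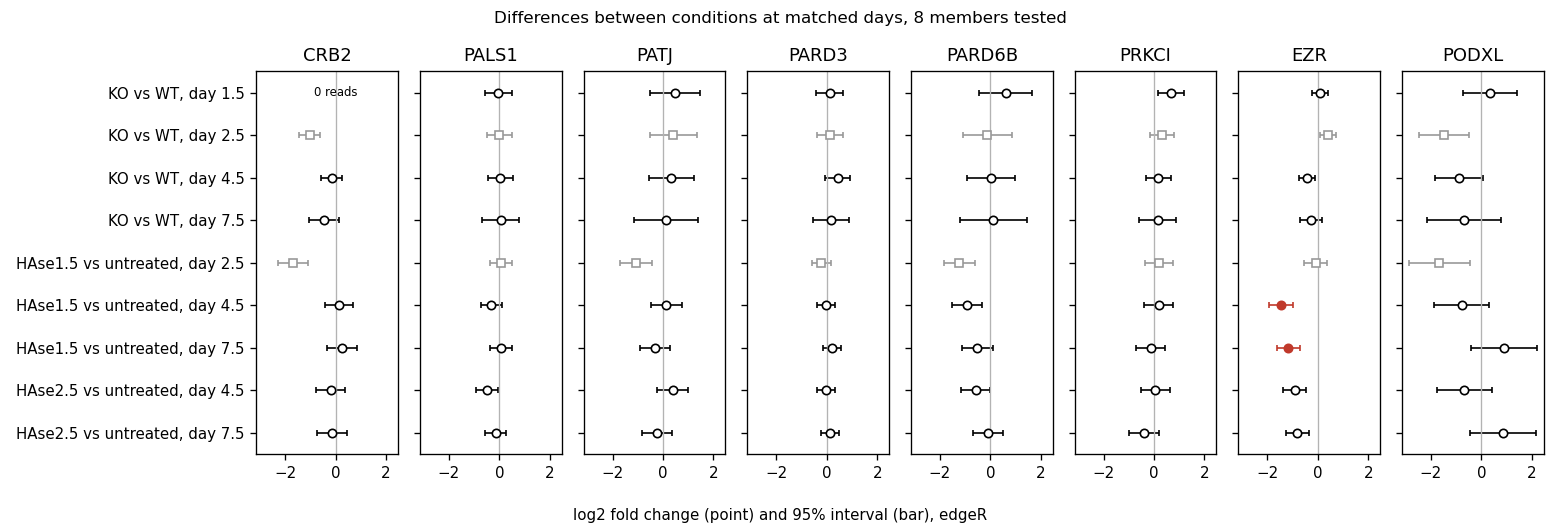
Log2 fold change with 95% interval (x axis) of the 8 members that were tested (1 panel each) in 9 comparisons between conditions (y axis). Filled red points are those with an adjusted p under 0.05, EZR in HAse1.5 at days 4.5 and 7.5. Grey open squares are the day 2.5 contrasts that chose the genes, and their intervals are not read as a test.

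Counts of members are set here beside the share of all genes called in the same comparison (13797 genes tested in the genotype arm, 12748 in the enzyme arm, 8 of the 9 members in each). Between KO and WT, 0 of 8 members were called at day 1.5 (background 0%), 0 at day 4.5 (3.74%) and 0 at day 7.5 (0.348%). In edgeR the members at an unadjusted p under 0.05 numbered 1, 1 and 0, and DESeq2 called 0 on each of these days. At day 1.5 the count of all genes was also 0, with 591 genes at an unadjusted p under 0.05 in edgeR and 0 called by DESeq2. With HAse1.5, 1 of 8 was called at day 4.5 (3.48%) and 1 at day 7.5 (3.33%), EZR both times. With HAse2.5, 0 of 8 were called at day 4.5 (0.220%) and at day 7.5 (0.659%), where edgeR had 2 and 1 at an unadjusted p under 0.05 and DESeq2 called 1 each (EZR). The median log2 fold change of the 8 members was −0.17 with HAse1.5 at day 4.5 against 0.02 over all genes, and 0.03 between KO and WT at day 4.5 against −0.03.

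For the contrasts that chose the genes nothing is read from the counts, which were 1 of 8 between KO and WT at day 2.5 (0.993%), 2 with HAse1.5 at day 2.5 (1.15%) and 3 for the WT step from day 1.5 to day 2.5 (30.1%). The later WT steps called 2 of 8 (day 2.5 to 4.5, 34.5%) and 0 (day 4.5 to 7.5, 2.70%), the last with 3 members at an unadjusted p under 0.05 in edgeR and 1 called by DESeq2. Without the deep libraries 1 was called there (7.73%). The KO steps called 2 (33.3%), 3 (30.5%) and 2 (6.22%) of 8 in order of days, and without the deep libraries 3 in the first (42.6%) and 6 in the second (42.7%). The untreated steps called 1 (23.0%) and 2 (6.39%). CRB2, whose day 2.5 level chose the genes, is 1 of those called in each of the first 2 KO steps. A share of 3 in 8 members is near the background of the large early steps. Differences of effects called 0 of 8 members throughout: the KO effect at day 7.5 minus day 4.5 (0.159%), the HAse1.5 effect (0.0157%) and the HAse2.5 effect (0%, with 609 genes at an unadjusted p under 0.05 in edgeR and 1 called by DESeq2) over the same days. For each of these 3, edgeR had 0 members at an unadjusted p under 0.05 and DESeq2 called 0. HAse1.5 against HAse2.5 called 0 of 8 at day 4.5 (0.361%) and day 7.5 (0.00784%), with 1 and 0 at an unadjusted p under 0.05 in edgeR and 0 by DESeq2. The HAse1.5 effect minus the KO effect called 0 at day 4.5 (0.362%, 1 by DESeq2, and 1 without the 2 deep libraries, 0.472%) and 0 at day 7.5 (0.0924%, 0 by DESeq2), with 1 member at an unadjusted p under 0.05 in edgeR on each day.

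Beyond the 9 members, 66 other genes were taken from 7 lists: the Crumbs and PAR complexes, basolateral polarity, ezrin-type linkers and apical sialomucins, other Crumbs partners, tight junctions and apical trafficking. Of these, 57 were tested in the genotype arm and 54 in the enzyme arm. Between KO and WT at day 4.5, 1 was higher and 4 were lower (8.77% of the 57, against 3.74% of all genes). NHERF1, the scaffold that joins ezrin to podocalyxin, fell to 52.9 ± 19.0 from 91.7 ± 18.1 CPM (log2 −0.87 ± 0.21, adjusted p = 0.0107). MSN (moesin), an ezrin relative, fell to 127 ± 5.73 from 188 ± 31.5 CPM (−0.65 ± 0.16, adjusted p = 0.0164). LLGL2, a basolateral protein that opposes the PAR complex, fell by 0.78 ± 0.22 (adjusted p = 0.0402), and RAB27A, a vesicle GTPase, by 0.86 ± 0.25 (adjusted p = 0.0405). AMOTL1, an angiomotin, rose by 1.07 ± 0.30 (adjusted p = 0.0392). The WT group at day 4.5 holds 2 deep libraries beside 4 others, and the KO group holds none. For the genes of these lists, values are given with all libraries only, so how far the calls depend on the deep libraries is not shown. At days 1.5 and 7.5, 0 of the 57 were called, with 5 and 3 at an unadjusted p under 0.05 in edgeR and 0 called by DESeq2.

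With HAse1.5 at day 4.5, 4 of the 54 other genes were lower and 0 higher (7.41%, against 3.48% of all genes). NHERF1 fell beside EZR, to 50.0 ± 2.78 from 121 ± 28.3 CPM (−1.36 ± 0.31, adjusted p = 0.0121), and LLGL2 fell by 1.31 ± 0.35 (adjusted p = 0.0378). AMOTL2, another angiomotin, fell to 14.5 ± 0.213 from 42.8 ± 19.7 CPM (−1.63 ± 0.38, adjusted p = 0.0154), and SYTL2, a synaptotagmin-like vesicle protein, to 4.75 ± 3.30 from 29.8 ± 8.10 CPM (−2.75 ± 0.63, adjusted p = 0.013). At day 7.5, 2 were lower (3.7%, against 3.33% of all genes): AMOTL2 again (−2.04 ± 0.40, adjusted p = 0.00453) and CLDN6, a claudin of early embryonic epithelia, at 7.46 ± 3.67 against 123 ± 54.8 CPM (−4.13 ± 0.68, adjusted p = 0.00145). With HAse2.5, AMOTL2 was the 1 gene called at day 4.5 (−1.88 ± 0.39, adjusted p = 0.0384). At day 7.5, 0 were called, with 7 at an unadjusted p under 0.05 in edgeR and 0 by DESeq2. At day 2.5, in contrasts used for the choice, NHERF1 was lower in KO (80.4 ± 17.1 against 155 ± 34.8 CPM, −1.01 ± 0.21), and with HAse1.5 PARD3B (−1.99 ± 0.38) and LLGL2 (−1.61 ± 0.35) were lower and RAB3B higher (1.70 ± 0.34).

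More genes of the same lists were called between days, as was so over all genes. In WT, 8 of the 57 rose and 10 fell from day 2.5 to day 4.5 (31.6% called, against 34.5% of all genes), and in KO 5 rose and 6 fell (19.3% against 30.5%). The angiomotin AMOT rose by 2.49 in WT and 1.71 in KO (adjusted p = 2.54e-07 and 0.000114) and AMOTL1 fell by 2.90 and 2.00 (7.95e-10 and 8.74e-07). RAB3IP, an exchange factor for the apical GTPase RAB8, rose by 3.08 and 2.87 (4.17e-09 and 1.58e-08). MSN fell by 0.81 and 1.41 (0.000105 and 6.49e-09) over the days on which EZR rose. In KO from day 1.5 to day 2.5, 3 rose and 11 fell (24.6% against 33.3%), among them AMOT, higher by 5.43 (8.94e-10), PARD3B, higher by 2.26 (4.88e-07), and the SNARE VAMP8, which fell by 3.03 (4.41e-12). From day 4.5 to day 7.5, 2 rose and 3 fell in WT (8.77% against 2.70%), 2 rose and 2 fell in KO (7.02% against 6.22%), and 2 rose and 5 fell in untreated cardioids (13% against 6.39%), where NHERF1 fell by 1.26 ± 0.31 (adjusted p = 0.0175).

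The genes whose levels followed CRB2 most closely were sought over the 16 group means of log2 CPM, among 12565 genes tested in both arms. The 5 highest Pearson correlations were TP53INP1 (0.984), MEIS1 (0.978), AMHR2 (0.971), LINC00205 (0.967) and HGSNAT (0.964). MEIS1, a homeobox factor, had a mean log2 CPM of 1.95 in WT at day 1.5 and 6.91 a day later, and at day 2.5 it was 4.88 in HAse1.5 against 6.95 in untreated cardioids. AMHR2, a TGF-beta family receptor, went from 1.39 to 5.03 in WT and was 4.73 in HAse1.5 against 5.03 in untreated cardioids at day 2.5. All 5 were at their lowest in the 2 groups at day 1.5, where CRB2 had no reads, and without those 2 groups the correlations over the other 14 were 0.74, 0.72, 0.47, 0.34 and 0.57 in the same order. They are a description over groups that share days and depth. Among the members, the correlation with CRB2 was 0.65 for PARD6B, 0.57 for PATJ, 0.43 for PALS1, 0.38 for PODXL, 0.32 for PARD3, −0.11 for EZR and −0.51 for PRKCI. Over the 14 groups without day 1.5 it was 0.87 for PODXL and between −0.38 (PALS1) and 0.16 (PARD6B) for the others. Those groups include day 2.5, whose CRB2 levels were used in the choice. They also include deep libraries of WT, in which PODXL was high. Correlations without the deep libraries were not computed, so nothing is read from the PODXL value.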

How the data were processed

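RNA was measured with a 3′ kit (QuantSeq FWD) that reads the 3′ end of polyadenylated transcripts, in 65 libraries of 8 pooled cardioids each, per the labels' protocols. The authors deposited whole-number read counts per Ensembl gene, made with featureCounts (Subread 1.6.2) on hg38 (GRCh38), per the submitters' processing notes. The aligner, the strand setting and the rule for multi-mapping reads are not given in the sources used here. The table has 4 more columns that match no listed sample, and they were not used. All 58735 gene IDs are in GENCODE 29, and 58207 have a current symbol.

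From the counts, CPM per library total and log2 fold changes were computed. edgeR 4.0.16 (R 4.3.3) was used with filterByExpr (minimum count 10), TMM factors (0.834 to 1.16) and a robust quasi-likelihood fit that shared its spread across an arm's libraries, each group with its own mean. Tests were two-sided, with Benjamini-Hochberg adjustment over all genes and a threshold of 0.05. A gene with at most 3 counts in every library of a group was at the floor, which covers counting error only, since PCR copies were not removed with molecular identifiers as far as the sources say. Total counts ran from 831062 to 3574843. In each of 115 replicate pairs the counts disagreed beyond sampling noise (chi-square over its degrees of freedom 2.10 to 81.5), so no 2 libraries were counted as 1. The labels give at least 3 biological replicates per condition without saying which libraries share a culture. Repeats of a line or clone entered the main fits as separate libraries. The p-values thus measure the spread between these libraries, and not the spread between clones.

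The members and gene lists were chosen with earlier results of these data known. All 9 members are named. Every other gene named as changed from the gene lists passed the threshold and was among the 3 largest changes of its list. For steps between days, only some of the genes that met this rule are named. In the enzyme arm the replicate numbers stand for lines, per the labels, and so pair the libraries (15 of 21 pairs had residual correlations over 0.1, −0.102 to 0.467). Alternatives were other size factors, DESeq2 1.42.0, no filter on low counts, only the groups compared, a replicate block, and each library left out. A joint fit of both arms and fits without the libraries over 2500000 counts were added after the data were seen. The fits were tested on simulated data. Promoters came from RefSeq (GRCh38.p14).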

Additional observations from a re-analysis of the deposited data

Results flagged for a closer look

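In groups of 4 to 10 libraries, the highest or lowest value of each member was set against Dixon's 95% critical value, which chance exceeds in about 1 of 20 groups. Of 46 groups examined, 4 held a library that stood apart. CRB2 in WT at day 2.5 was 286 CPM in line WT R1, with the other 5 libraries between 115.2 and 177 CPM. That library is 1 of the 7 over 2500000 counts. PATJ in KO at day 2.5 was 14.04 CPM in clone cl46 R1, with the others between 28.2 and 33.7 CPM. PARD3 in KO was 66.2 CPM in clone cl4 R1 at day 2.5 (others 117.4 to 137.3 CPM), which is the shallowest library at 831062 counts, and 121.6 CPM in clone cl4 R2 at day 4.5 (others 168 to 188.2 CPM).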

How the results depend on the processing

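Outside the contrasts of the choice, and leaving out CRB2 in steps that touch day 2.5, 12 of 164 pairs of a member and a comparison were called, and 7 of these stayed called under every alternative tried. No called value changed sign. Of the 140 pairs called in no setting, 67 changed sign in at least 1 alternative. The number of the 8 tested members called changed as follows, with the contrasts of the choice included as a description. With only the groups compared in the fit it went from 1 to 2 for KO against WT at day 2.5, from 2 to 1 for the WT step from day 2.5 to 4.5, from 3 to 6 for the KO step from day 2.5 to 4.5, from 2 to 1 for HAse1.5 at day 2.5, from 0 to 1 for HAse2.5 at day 4.5 and from 1 to 2 for the untreated step from day 2.5 to 4.5. With no filter it went from 2 to 1 for the WT step from day 2.5 to 4.5 and for the KO step from day 4.5 to 7.5, and from 0 to 1 for HAse2.5 at days 4.5 and 7.5. DESeq2 called 1 instead of 0 for the WT step from day 4.5 to 7.5, 2 instead of 1 for HAse1.5 at day 4.5, and 1 instead of 0 for HAse2.5 at days 4.5 and 7.5 and for the HAse1.5 effect minus the KO effect at day 4.5. Without the 7 libraries over 2500000 counts it went from 0 to 1 for the WT step from day 4.5 to 7.5 and from 3 to 6 for the KO step from day 2.5 to 4.5, and without the 2 deep libraries of the joint fit from 0 to 1 at day 4.5. Leaving out each replicate in turn gave 1 to 2 for the WT step from day 2.5 to 4.5, 0 to 2 for the KO step from day 4.5 to 7.5, 1 to 2 for HAse1.5 at day 2.5, 0 to 1 for HAse1.5 against HAse2.5 at day 4.5, 0 to 1 and 1 to 3 for the untreated steps from day 2.5 to 4.5 and from day 4.5 to 7.5, and 0 to 1 for the HAse1.5 effect minus the KO effect at day 4.5. The cause of these changes was not tested. With the replicate block, paired by line in the enzyme arm and by block of library numbers in the genotype arm, the joint count at day 4.5 went from 0 to 1, and no other count of members moved by over 1.5 times. In the genotype arm the block is shared by a number only, with 26 of 37 pairs at a residual correlation over 0.1 (−0.0742 to 0.787). CRB3 could not be tested at this depth.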
